A study of Sus scrofa with 3 samples.

Results

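Small RNA was sequenced from psoas major, the tenderloin muscle of the pig, in fattening pigs of 63, 98 and 161 d of age, with 1 library per age. By the study's methods the pigs were castrated male Landrace × Large White × Duroc hybrids, and the RNA of several pigs was pooled within each age. There were therefore no replicates: every difference below lies between 3 libraries, carries an interval for counting error only, and has no p-value. Described here are entries on hairpins of known miRNAs whose name keeps the lower-case hairpin name, mir, followed by p5 or p3 for the 5′ or 3′ side. This form of name denotes an arm without a miRNA name of its own. On some of these hairpins, such as mir-219b and mir-339-1, a known mature sequence nonetheless lies on the same side. The rule used names and mapping groups, and no level. It took 65 names of 1963 in the 3 libraries together, and the libraries of 63, 98 and 161 d listed 40, 46 and 41 of them. A prefix names the species of the known hairpin (ssc pig, bta cattle, hsa human, mmu mouse, ggo gorilla and sha Tasmanian devil).

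A miRNA hairpin is cut from its primary transcript by Drosha and from its loop by Dicer, which leaves a duplex of the 5′ and the 3′ arm. Usually 1 arm, the guide, is kept by an Argonaute protein, and the passenger arm is degraded, so reads from the passenger arm are fewer. A genuine pair of arms lies on opposite sides of the loop, pairs with each other, and starts at a sharply defined base, since the bases after the first form the seed that finds the targets. miR-486, miR-206 and miR-133b are known as skeletal muscle miRNAs, and their opposite arms were among the entries. The library label was checked on markers: all 7 skeletal muscle miRNAs on the marker list were found at every age, with a summed level of 283008, 266813 and 296253 RPM (the reads of a name divided by those of its table and multiplied by 1e6) at 63, 98 and 161 d. The blood cell markers summed to 2080, 3219 and 2265 RPM, the epithelial markers to 546, 870 and 718 RPM and the liver markers to 35.2, 307 and 54.0 RPM, each list complete at every age. Their part in the values below was not tested.

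Sequences of selected entries are shown in 2 sets, which do not cover or divide all names. The first set is shown because its reads were numerous and lay on hairpins where no known arm was listed. The stretch of the known hairpin under the representative read, the 1 form by which the table describes an arm, is given for 63 d, 5′ to 3′, and capitals mark bases that belong to the known mature miRNA of that hairpin.

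bta-mir-2904-1-p5: CTCGGTTGGCCTCggatagccggtc

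bta-mir-2904-1-p3: CCTCggatagccggtcccccgcc

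hsa-mir-7641-2-p5: TCGGAAGCTAAGCagggtcgggcct

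hsa-mir-7641-2-p3: AAGCagggtcgggcctggttagtact

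bta-mir-2887-2-p5: CGGTGCGgagagcccttcgtc

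bta-mir-2887-2-p3: TGCGgagagcccttcgtcccggga

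ssc-mir-4332-p3: ccccggtcggcgtcCACGGC

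sha-mir-716a-p3: aaacgagaactttgaaggctga

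Hairpins known from other species can differ from the pig read: that of sha-mir-716a-p3 was aaacgagaactttgaaggccga and that of bta-mir-2887-2-p3 was tgcggagagcccttcgtcctggga. The 5′ and 3′ reads of mir-2904-1 shared 16, 12 and 16 bases in the 3 libraries by order of age, those of mir-2887-2 shared 18 in each, and those of mir-7641-2 shared 16, 17 and 17. These 3 pairs were staggered reads of 1 stretch. As background, letters of mir-2904, mir-2887, mir-6087 and mir-716a are known from 28S ribosomal RNA, those of mir-7641 from 5S ribosomal RNA and those of mir-1983 from a tRNA. By the study's methods reads of rRNA, tRNA and repeats were removed. The part of these RNAs in the values below was not tested, since no sequence of them was used here.

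The second set is shown because its reads lay opposite a well-known muscle miRNA (mir-486, mir-133b and mir-206), shared the seed of related 3′ arms (mir-99b) or were uniform in sequence (mir-4331). Capitals here mark the seed, bases 2 to 8 of the read at 161 d. The known arm of the same hairpin follows each entry except mir-4331-p5, whose hairpin had no known arm listed. The known mature sequence in the mir-206 hairpin starts TGGAATGT. The printed read of ssc-miR-206 differs from it inside the seed, so its capitals are not the seed of that known sequence.

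ssc-mir-486-2-p3: cGGGCCAGctcagtacccggcgt

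ssc-miR-486: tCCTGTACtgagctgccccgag

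ssc-mir-133b-p5: gCTGGTCAaacggaaccaagt

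ssc-miR-133b: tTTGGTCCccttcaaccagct

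ssc-mir-206-p5: aCATGCTTctttatatccccat

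ssc-miR-206: tGTAATGTaaggaagtgtgtga

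ssc-mir-99b-p3: cAAGCTCGtgtctgtgggtccgt

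ssc-miR-99b: cACCCGTAgaaccgaccttgc

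ssc-mir-4331-p5: tGGCGTAGatcacagacacagc

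ssc-mir-486-2-p3 and ssc-miR-486 formed 17 base pairs with each other in the hairpin fold given in the table. The mir-206 pair formed 16 to 17, the mir-133b pair 16 to 17, and the mir-99b pair 12. Over the 25 entries whose hairpin also had a known arm listed, the median was 14 base pairs, 17 had at least 12 and 1 had none. The seed of ssc-mir-99b-p3 was that of bta-miR-99a-3p and hsa-miR-100-3p, the 3′ arms of related hairpins. The entries mir-99b-p3 and mir-4331-p5, like mir-4331-p3, mir-716a-p5, mir-2887-2-p3 and mir-421-p5, were singled out after their values were seen.

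Few reads lay opposite a known arm that was itself listed. The representative read overlapped the known mature sequence of its own hairpin, by any number of bases, in 17 of 40, 19 of 46 and 18 of 41 entries, by order of age. These entries held 60.7, 55.6 and 60.6% of the reads of all entries. At 63 d the overlap ran from 2 bases in sha-mir-716a-p5 to 20 in ssc-mir-2411-p5, and was 4 in bta-mir-2904-1-p3. Entries were classed by the representative read alone, so the percentages do not show where their other reads lay. Among entries with at least 20 reads, 12 of 20, 13 of 21 and 12 of 19 overlapped it. Hairpins with both sides listed as unannotated arms numbered 10, 11 and 9, and held 99.4, 98.8 and 98.1% of the reads. Entries with a known arm listed on the same hairpin, 10, 15 and 14 in number, held 0.485, 0.699 and 1.45%. The 65 names are therefore called p5 and p3 arms below, and not passenger arms.

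**Figure D1:**
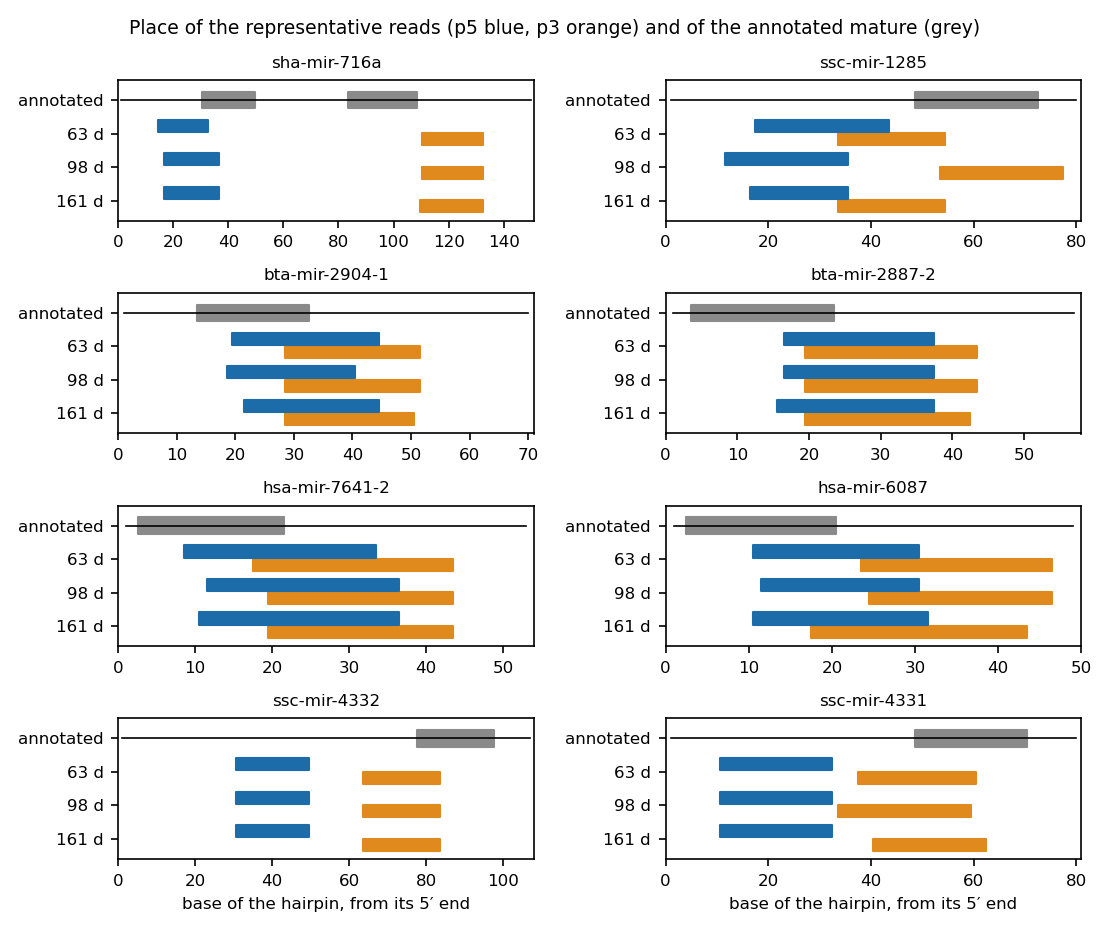
Position of the representative reads of p5 (blue) and p3 (orange) arms at 63, 98 and 161 d along 8 hairpins, in bases from the 5′ end, with the known mature stretch in grey above them. The p5 and p3 reads of mir-2904-1, mir-2887-2 and mir-7641-2 lie on top of each other and over part of the known stretch, while the reads of mir-716a, mir-4332 and mir-4331 lie apart from each other.

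The arms also differed from known miRNAs in how uniform their reads were. For an arm with at least 20 reads, the share of its reads that were copies of its representative read was taken, so that a high share means that most reads had 1 form. Its median was 7.96, 7.86 and 6.56% over 20, 21 and 19 arms. For known arms the median was 55.7, 54.4 and 52.6%. Shares under 20% were seen in 15 of 20, 16 of 21 and 13 of 19 p5 and p3 arms, beside 2 of 256, 5 of 293 and 8 of 276 known arms, which is 0.781, 1.71 and 2.90%. The most abundant entry, sha-mir-716a-p3, was among the lowest, with 2.71, 2.51 and 3.32%. ssc-mir-1285-p5 had 2.65, 2.49 and 3.53%.

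A few arms were as uniform as known miRNAs. ssc-mir-4331-p5 gave 82.1, 77.3 and 74.0% of its reads as 1 sequence of 22 bases, from 28, 66 and 77 reads. ssc-mir-486-2-p3 gave 60.0, 73.3 and 62.2%, from 20, 60 and 98 reads, beside 56.1, 56.0 and 55.8% for its known arm ssc-miR-486. Both stood well above the median of the p5 and p3 arms in each library, and neither overlapped the known mature sequence of its hairpin.

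**Figure D2:**
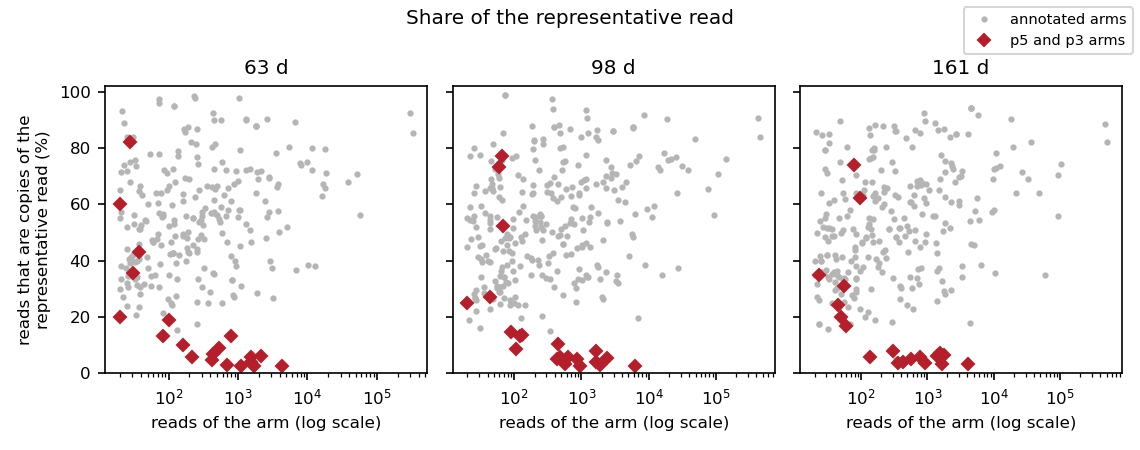
Share of an arm's reads that are copies of its representative read (y axis, %) against the reads of the arm (x axis, log scale), for arms with at least 20 reads at 63, 98 and 161 d. Most p5 and p3 arms (red) lie under 20%, below nearly all known arms (grey).

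Length and first base differed too, when each entry was counted once whatever its reads. Of the entries, 17, 16 and 19 had under 5 reads, so these shares are uncertain. Reads of 20 to 24 bases, the usual length of a miRNA, made up 67.5, 73.9 and 78.0% of the p5 and p3 entries, against 97.0, 97.2 and 96.2% of known arms. T as the first base, read as U in the RNA and favoured by Argonaute proteins, stood in 27.5, 10.9 and 24.4% of the entries, against 40.9, 40.5 and 42.7% of known arms. In each library 4 entries shared their seed with a known arm of another hairpin.

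Reads that differed from the genome were frequent in some arms. In the mir-7641-2 hairpin 85.6 to 91.2% of the reads of its 2 arms carried a mapping error, and hsa-mir-7641-1-p3 had 66.0, 57.1 and 71.0%. hsa-mir-7641-1-p5, on the near-identical copy of that hairpin, had only 1.17 and 1.16% at 63 and 98 d. Both copies have fractional counts, so reads may be shared between them, and the values of either copy are uncertain. The median over p5 and p3 arms with at least 20 reads was 9.03, 10.3 and 13.2%, beside 17.9, 17.5 and 18.9% for known arms. The representative read of mir-7641-2-p5 carried A20G, A17G and A18G in the libraries of 63, 98 and 161 d, written as genome base, position from 1 at the 5′ end of the read, and read base. Since the reads began at different bases, these fall on the same base of the hairpin. The known hairpin has g there, like the reads, and the genome sequence has a. Its part in the mapping errors of the other reads was not tested.

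ssc-mir-486-2-p3 had errors in 85.0, 88.3 and 80.6% of its reads, against 33.9, 33.0 and 32.5% in ssc-miR-486. The representative read carried C23T at its last base in all 3 libraries. ssc-mir-99b-p3 had 75.0 and 56.5% at 98 and 161 d, against 22.2 and 21.1% in ssc-miR-99b, and its representative read at 98 d carried G24T, again at the last base. hsa-mir-219b-p3, whose read lies over the known 3′ mature sequence of its hairpin for 17, 17 and 18 bases, had 93.5, 88.4 and 96.4%, with T1C at the first base.

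Most reads came from 1 place on the genome. The hairpins mir-4332, mir-716a, mir-6087, mir-2904-1 and mir-2887-2, with 10 entries, lay on the minus strand of 1 genome sequence within 3903 bases. They ran from mir-4332, at 870446 to 870551, over mir-716a, at 868791 to 868939, mir-6087, at 867408 to 867456, and mir-2904-1, at 866740 to 866808, to mir-2887-2, at 866649 to 866705. The table names neither the chromosome nor the build, so no gene annotation was assigned. These 10 entries held 69.0, 72.5 and 71.4% of the reads of all entries. Their summed level was 7568, 5729 and 4605 RPM, so it was highest in the 63 d library and lowest in the 161 d library.

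**Figure D3:**
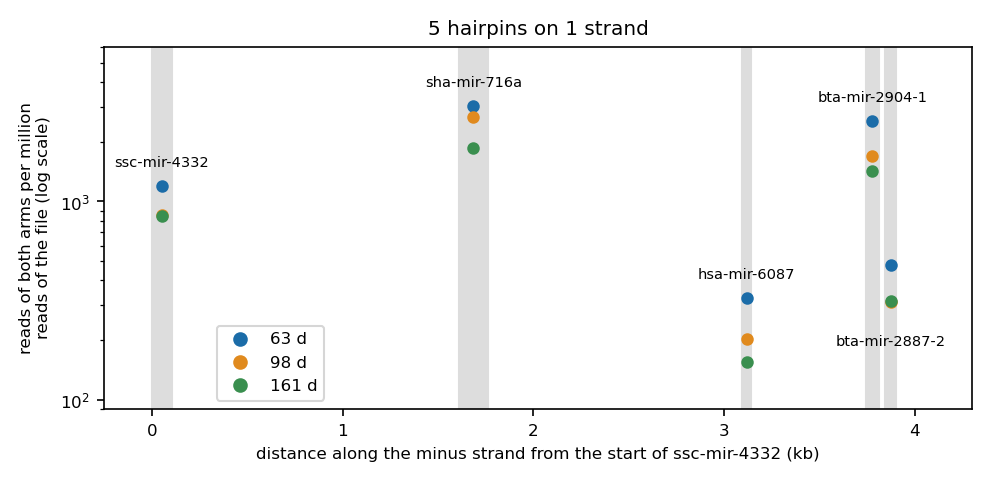
Level in RPM (both arms summed, log axis) of the 5 neighbouring hairpins against their distance from the first, in kb, for the 3 libraries. mir-716a is the highest in every library and mir-6087 and mir-2887-2 are the lowest; where the 98 d and 161 d values nearly coincide, 1 symbol covers the other.

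Within hairpins with both arms listed at every age, for those with 20 or more reads, the side that dominated was the same at every age. In mir-716a the 5′ arm held 1.89, 1.87 and 1.41% of the reads of both arms, and in mir-6087 it held 7.77, 8.96 and 13.0%. In mir-4332 it held 12.7, 21.03 and 19.2%. In mir-2904-1 it held 41.5, 40.3 and 43.7%. In mir-2887-2 the 5′ arm was the larger, with 77.2, 82.4 and 80.8%, and so it was in mir-7641-2, with 70.8, 76.8 and 79.6%, and in mir-1285, with 57.6, 53.2 and 54.3%. The p5 and p3 reads of mir-2904-1, mir-2887-2 and mir-7641-2 shared 12 to 18 bases. Their shares thus split reads of 1 stretch and do not compare separate arms. Those of mir-6087 shared 6 to 14 bases and those of mir-1285 shared 0 to 10. In mir-4331 the 5′ share was 59.6% in the youngest library, with a 95% Wilson interval of 45.3 to 72.4%. It was 82.5% (72.7 to 89.3%) and 87.5% (79.0 to 92.9%) in the older ones, whose intervals lay above it. The same held for mir-4332, at 11.2 to 14.3% against 19.3 to 22.8% and 17.5 to 21.1%. It also held for mir-7641-2, at 69.0 to 72.6% against 75.1 to 78.5% and 77.9 to 81.3%.

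In all, the p5 and p3 arms held 16075 of 1464699 reads (1.10%) in the 63 d library. They held 19105.5 of 2418187 (0.790%) in the 98 d library and 14470 of 2242716 (0.645%) in the 161 d library. The 12 highest names held 96.6, 95.7 and 95.8% of these reads and mir-716a-p3 alone 27.1, 33.2 and 28.5%. Most names were scarce. Only 20, 21 and 19 had at least 20 reads, and 17, 16 and 19 had under 5 reads. A level of 0 allows up to 3 reads, that is 2.05, 1.24 and 1.34 RPM.

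sha-mir-716a-p3 stood at 2975, 2619 and 1842 RPM at 63, 98 and 161 d. bta-mir-2904-1-p3 stood at 1486, 1007 and 802 RPM and its partner mir-2904-1-p5 at 1056, 680 and 623 RPM. Each was highest at 63 d and lowest at 161 d. Of the other abundant arms, hsa-mir-7641-2-p5 (1159, 777 and 747 RPM), hsa-mir-7641-2-p3 (477, 234 and 191 RPM) and hsa-mir-6087-p3 (300, 185 and 135 RPM) had the same order. ssc-mir-4332-p3 (1041, 679 and 682 RPM), ssc-mir-1285-p5 (747, 398 and 404 RPM), ssc-mir-1285-p3 (550, 350 and 341 RPM) and bta-mir-2887-2-p5 (368, 256 and 253 RPM) were high at 63 d and nearly level afterwards. ssc-mir-4332-p5 alone among the 12 had its highest value at 98 d, with 150.9, 180.7 and 162.3 RPM.

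**Figure D4:**
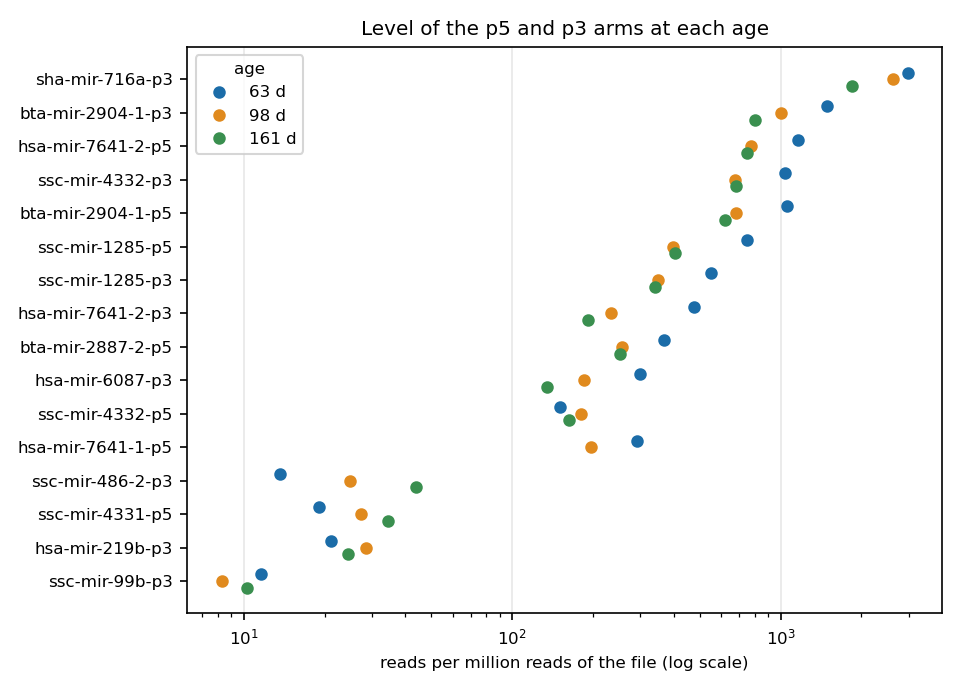
Level in RPM (log axis) of the 12 highest p5 and p3 arms and of 4 scarcer ones in the libraries of 63, 98 and 161 d, 1 point per library; hsa-mir-7641-1-p5 is listed at 0 at 161 d and has no point there. The 12 highest arms except ssc-mir-4332-p5 have their highest point at 63 d, while mir-486-2-p3, lower down, rises from 13.7 to 43.7.

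A level was called changed between 2 libraries where the fold was past 2 in either direction and its exact 95% interval excluded 1, among names with at least 20 reads in both libraries together. From 63 to 98 d 22 arms could be tested, of which 1 was higher and 2 were lower, while 23.3% of all 515 names tested were called (14.0% higher and 9.32% lower). The arm higher at 98 d was mmu-mir-1983-p3, at 13.7 RPM at 63 d and 43.4 RPM at 98 d, a fold of 3.18 (1.96 to 5.42). Lower were hsa-mir-7641-2-p3, at 0.49 of its 63 d level (0.438 to 0.549), and ssc-mir-4331-p3, at 0.45 (0.207 to 0.939) on 19 and 14 reads. Between 63 and 161 d 22 arms were tested, 1 was higher and 7 were lower, beside 30.4% of 496 names called, 52 higher and 99 lower. Between 98 and 161 d 23 arms were tested, 0 were higher and 2 were lower, beside 20.8% of 528 names called, 4.55% higher and 16.3% lower. These 2 were hsa-mir-7641-1-p5 and mmu-mir-1983-p3, both listed at 0 at 161 d.

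Most arms that were not called had folds below 1. From 63 to 161 d the fold lay under 1 in 18 of 22 arms, the interval lay wholly under 1 in 16, and the median was 0.604, whereas over all 496 names the median was 0.887 and 40.5% had an interval under 1. From 63 to 98 d, 17 of 22 folds lay under 1, with a median of 0.675 beside 1.14. From 98 to 161 d the median was 0.916 beside 0.815. That last median turned above 1 when libraries were scaled by edgeR (1.07), by DESeq2 (1.14) or without miR-133a (1.04), while the 17 and the 18 folds under 1 of the other pairs were the same number under each of these. The arms were not independent. In each pair of libraries 10 of those tested lay within 3903 bases, and p5 and p3 reads of some hairpins shared bases. Counts and medians for 161 d include hsa-mir-7641-1-p5 and mmu-mir-1983-p3, listed at 0 there under these names. With all names on the side counted, their folds from 63 d were 0.510 (0.440 to 0.589) and 1.04 (0.580 to 1.93). The latter was not under 1.

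Of the 7 arms lower at 161 than at 63 d, hsa-mir-6087-p3 had a fold of 0.449 (0.387 to 0.521), hsa-mir-7641-2-p3 of 0.400 (0.354 to 0.452) and hsa-mir-7641-1-p3 of 0.327 (0.228 to 0.463), from 68.3 RPM at 63 d and 36.6 RPM at 98 d to 22.3 RPM at 161 d. sha-mir-716a-p5 had a fold of 0.459 (0.323 to 0.648), from 57.3, over 50.04, to 26.3 RPM, and ssc-mir-4331-p3 of 0.378 (0.163 to 0.836), from 19 to 11 reads. The remaining 2 calls, again of hsa-mir-7641-1-p5 and mmu-mir-1983-p3, rest on names, since the 161 d table lists reads of the same side of the hairpin under an annotated name. With those reads counted, mir-7641-1-p5 went from 292 and 197 RPM to 149 RPM, a fold of 0.510 (0.440 to 0.589), and was not called. On the side of mir-1983-p3, 32 reads, 14.3 RPM, were listed as mmu-miR-1983 at 161 d. That known stretch covers bases 100 to 120 of the hairpin, whereas the representative reads of mir-1983-p3 covered bases 75 to 95 at 63 d and 82 to 100 at 98 d, so levels of the side, and not of 1 product, are compared. The fold of the side from 63 d was then 1.04 (0.580 to 1.93), the opposite direction, and that from 98 d was 0.329 (0.214 to 0.492).

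ssc-mir-486-2-p3 was the 1 arm called higher between 63 and 161 d, at 13.7, 24.8 and 43.7 RPM from 20, 60 and 98 reads. Each library was above the one before it. Its fold from 63 to 161 d was 3.2 (1.96 to 5.47). The step from 63 to 98 d was 1.82 (1.08 to 3.18), and that between the older libraries was 1.76 (1.26 to 2.47). miR-486 is also known as abundant in red blood cells. The red blood cell markers miR-451, at 752, 1366 and 1001 RPM, and miR-144, at 107.2, 214.6 and 140.5 RPM, were lowest at 63 d and highest at 98 d. Their part in this result was not tested. ssc-mir-4331-p5 stood at 19.1, 27.3 and 34.3 RPM, a fold of 1.80 (1.15 to 2.88) from 63 to 161 d that was not called. hsa-mir-219b-p3 stood at 21.2, 28.5 and 24.5 RPM, with a fold from 63 to 161 d of 1.16 (0.733 to 1.86).

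Arm use was measured within a hairpin and library as the share of the reads of both arms that lay on the unannotated arm, which needs no scaling. For hairpins with at least 20 reads on the pair, the median share was 1.58, 0.254 and 1.11% over the 7, 13 and 14 arms with reads in that library. With arms at 0 reads included, unless their side was listed under another name, it was 0.0174, 0.194 and 0.469% over 14, 15 and 17 arms. In hairpins with reads on both of their annotated arms, the smaller arm held a median of 3.15, 3.13 and 3.31% over 164, 179 and 164 hairpins. The medians of the unannotated arms include hsa-mir-219b-p3, whose read lies over a known mature sequence. They also include ggo-mir-421-p5, ggo-mir-652-p5 (63 d) and ggo-mir-326-p5 (98 and 161 d), with only 2 to 3 base pairs to the known arm. They are therefore not medians of passenger arms alone. In the miR-486 hairpin, ssc-mir-486-2-p3 had 20, 60 and 98 reads beside 57388, 93531 and 91747 of ssc-miR-486. Its share was 0.0348% (0.0226 to 0.0538%), 0.0641% (0.0498 to 0.0825%) and 0.107% (0.0876 to 0.130%). The odds of the 3′ against the 5′ arm were 3.06 times as high at 161 d as at 63 d (exact interval 1.88 to 5.24), which was the 1 call among 10 arms tested, beside 9.47% of 169 hairpins with both arms annotated. The ratio was 1.84 (1.09 to 3.22) for 98 against 63 d. For 161 against 98 d it was 1.67 (1.20 to 2.34). In these pairs 0 of 11 and 0 of 13 arms were called, beside 10.7% and 7.73% of the annotated hairpins.

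The opposite arms of the other muscle miRNAs were too scarce to compare. ssc-mir-133b-p5 had 2, 7 and 4 reads, a share of 0.103, 0.179 and 0.127%, and ssc-mir-206-p5 had 1, 9 and 3 reads, a share of 0.0360, 0.137 and 0.101%. From 63 to 161 d the odds ratio of mir-133b-p5 was 1.24 (0.177 to 13.7) and that of mir-206-p5 was 2.81 (0.226 to 148), so a change was not detectable at this depth. ssc-mir-99b-p3 had 17, 20 and 23 reads and a share of 1.58% (0.991 to 2.52%), 1.17% (0.757 to 1.80%) and 1.64% (1.10 to 2.45%), with overlapping intervals. ggo-mir-421-p5 had 1, 10 and 8 reads and a share of 3.33% (0.591 to 16.7%), 13.0% (7.21 to 22.3%) and 15.4% (8.01 to 27.5%), and these intervals overlapped too. Its read formed only 2 base pairs with the known arm ssc-miR-421-3p in each library, so its share is not read as use of a passenger arm. hsa-mir-219b-p3 was the 1 arm with a share above 50%, at 93.9, 100 and 100%, from 31, 69 and 55 reads beside 2, 0 and 0 reads of the annotated 5′ arm. Its read, however, lay over the known 3′ mature sequence of that hairpin for 17, 17 and 18 bases. This share is therefore not that of an unannotated arm.

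**Figure D5:**
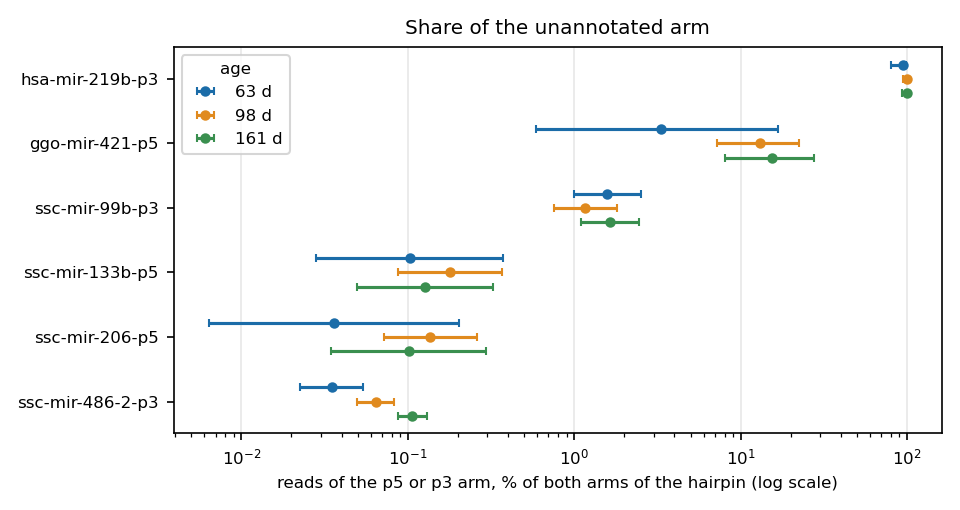
Share of a hairpin's reads on the unannotated arm (%, log axis) in the libraries of 63, 98 and 161 d, with 95% Wilson intervals. hsa-mir-219b-p3 is shown too, though its read lies over a known 3′ mature sequence. The intervals of mir-486-2-p3 at 63 and 161 d lie apart, and those of mir-99b-p3, mir-133b-p5, mir-206-p5 and mir-421-p5 overlap between the libraries.

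By lists of known hairpin groups, 3 of the 65 names were on myomiR hairpins (mir-133b, mir-206 and mir-486-2), with 23, 76 and 105 reads in all. The lists of blood, DLK1-DIO3, X-linked and 17-92 hairpins held 1 name each, with at most 11 reads in any library, and the other 58 names were on none of these lists and held 99.9, 99.5 and 99.2% of the reads.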

How the data were processed

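The deposited tables give, for each name, counts of reads (some fractional, so estimated counts as deposited) and of reads with mapping errors. Per the labels the authors used ACGT101-miR 4.2; per the methods, known miRNAs came from miRBase, and reads of other RNA classes and repeats were removed. The genome build is not given in the sources used here, and the labels and the methods name different RNA extraction kits. The tables total 1464699, 2418187 and 2242716 reads; they sum over all entries, some names stand at several hairpins, and how reads that match several were shared is not stated.

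Levels were scaled to the table's total. Wilson intervals (shares), Clopper-Pearson conditional intervals (folds) and exact conditional intervals (odds ratios) were computed with scipy 1.17.1 in Python 3.11.15, at 95%, and cover counting error only. Known arms were paired by hairpin position. edgeR 4.0.16 and DESeq2 1.42.0 served for alternative scaling factors alone. Code was tested on simulated data.

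Members and lists were chosen with earlier results of these data known. Named arms were the 12 highest, those with a share above 50%, per pair the 4 largest called changes in level (at least 50 reads) and in odds, and the myomiR arms. The sequences of 1 hairpin's arms are not reported here.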

Additional observations from a re-analysis of the deposited data

How the results depend on the processing

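With 1 library per age no library could be left out, and depth limited the scarce arms, most of which had under 20 reads. No paired analysis was possible because each age has 1 library and no replicate number. Of the summary values, 193 settings stayed within the limits set and 44 did not. The cause was not tested, unless the setting itself shows it.

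With at least 3 reads, the names listed fell to 25 at 63 d and 27 at 161 d, and with at least 10 reads to 22, 26 and 21. For 98 against 63 d, arms higher numbered 3 with a minimum of 10 reads, 3 with none and 2 on copies of the representative read. Arms lower numbered 5 under DESeq2 and 5 without miR-133a, but 1 with a minimum of 50 reads and 1 on reads without mapping error. For 161 against 98 d, arms higher numbered 1 under edgeR, under DESeq2, without miR-133a and on reads without mapping error. Arms lower numbered 4 with a minimum of 10 reads, 4 with none, and 1 on copies of the representative read or with any name counted. Over all names, those lower numbered 111 (98 against 63 d) and 176 (161 against 63 d) with no minimum. For 161 against 98 d, all names higher numbered 40 under DESeq2, 40 with a minimum of 10 reads, 50 with none and 15 with 50 reads, and those lower numbered 57 under DESeq2. edgeR moved all folds by 0.22 (log2) for 161 against 98 d and 0.14 for 161 against 63 d, DESeq2 by -0.17 for 98 against 63 d, 0.32 and 0.15, and omission of miR-133a by -0.17, 0.19 and 0.02.

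With all names on the same side of the hairpin counted, the fold of mir-1983-p3 from 63 to 161 d was 1.04, the reverse direction. The number of arms with a share above 50% was 0 with a minimum of 100 reads or on reads without mapping error in all libraries, 0 on copies of the representative read at 63 and 161 d, and 2 with hairpin copies summed at 63 and 161 d. Odds of the arms called higher numbered 1 for 98 against 63 d on copies of the representative read, 1 for 161 against 98 d on reads without mapping error, and 0 for 161 against 63 d when the known arm was paired by hairpin name, which leaves mir-486-2-p3 without a partner. Odds called lower numbered 1 for 98 against 63 d on reads without mapping error and 1 for 161 against 63 d with hairpin copies summed. Arms with more mapping errors than their known arm numbered 0 at 63 d and 1 at 98 d when paired by hairpin name. A minimum of 100 reads for mapping errors left no pair. Pairing by name, any-name counts and 2 further totals were chosen after seeing the data.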
